A study of Mus musculus with 106 samples.

Results

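The Sox, Pax, Fox, Lhx, Tbx and sine oculis homeobox (Six2, Six4 and their relatives) genes encode transcription factors that set cell identity in the embryo, and their promoters were read here in mouse blood stem cell preparations and macrophages. Protein-coding genes were taken whose symbol is one of these family names followed by digits, for Fox with 1 letter between. Pax5, Foxo1 and Foxo3, which have established roles in blood cells, were left out by the same rule. This gave 96 of 21938 annotated protein-coding genes, of which 42 are Fox, 19 Sox, 13 Tbx, 8 Lhx, 8 Pax and 6 sine oculis homeobox genes. The rule used names only, though it was set with earlier results of these data known.

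Sox proteins bind DNA through an HMG box, Fox proteins through a forkhead domain, Tbx proteins through a T-box, Pax proteins through a paired domain, and the Lhx and sine oculis proteins through homeodomains. Most of them are switched on in particular embryonic tissues such as nerve, muscle, heart, kidney or gonad and are silent in blood. A smaller number, among them Foxk1, Foxm1, Foxp1 and Sox4, act in many dividing or blood-forming cells. Trimethylation of histone H3 at lysine 4 (H3K4me3) marks the start of active genes and also CpG-rich starts of silent developmental genes, where Polycomb proteins often hold the gene off. Acetylation of lysine 27 (H3K27ac) marks active promoters and enhancers, and a lysine 27 that is acetylated cannot carry the Polycomb mark, trimethylation of the same residue. That Polycomb mark was not measured in the samples used here.

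Both marks were profiled by chromatin immunoprecipitation and sequencing (ChIP-seq) in 2 kinds of cell from C57BL/6J mice aged 12 to 14 weeks, with or without diabetes, the age being that at assignment. Diabetes was induced by streptozotocin, which destroys pancreatic beta cells, at 42 to 45 mg/kg on each of 5 days, and cells were collected 6 weeks later from mice with a blood glucose above 13.9 mmol/L. Haematopoietic stem cells (HSCs) were bone marrow depleted of cells with lineage markers, a preparation that still holds many committed progenitors. Bone marrow-derived macrophages (BMDMs) were grown from marrow for 7 days with L929-conditioned medium and 5 mmol/L glucose, and then received medium alone (unstimulated) or 100 ng/mL LPS with 10 ng/mL IFN-γ for 16 h. Of the 12 groups, formed by 2 marks, 3 cell states and control or diabetic mice, 10 held 6 libraries and the 2 of unstimulated diabetic BMDMs held 5. Each library had its own list of peaks, and a library of each mark with the same name gave 35 pairs (12 HSC, 11 unstimulated and 12 LPS+IFN-γ).

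A promoter was the stretch within 1 kb of any annotated start site of a gene on GRCm38. The lists were of very different length, between 51162 and 176559 peaks for H3K27ac and between 13730 and 277213 for H3K4me3, so the 10000 peaks of highest −log10 p in each list were read, and a promoter was called marked if it met at least 1 of them. A promoter with no mark is therefore one outside the strongest 10000 peaks and not one without signal. In bulk cells, a mark in fewer cells and a weaker mark in every cell cannot be told apart. For a graded value, the best −log10 p at each promoter was ranked over all genes within its own library and given as a percentile, where 100 is the strongest promoter of that library.

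Cell identity was checked on marker promoters. H3K27ac met Myb in 12 and Gata2 in 10 of 12 HSC libraries, but only 2 of 8 stem and progenitor genes in most of them. None of 8 macrophage promoters was met in any HSC library, whereas 4 of 8 were met in most BMDM libraries, with Adgre1 and Trem2 in none. Of 6 endothelial genes, which several Sox and Fox proteins serve, H3K27ac met none in most HSC libraries, and it met Kdr in 7 of 11 unstimulated and 11 of 12 LPS+IFN-γ BMDM libraries, while the other 5 (Cdh5, Tek, Emcn, Tie1 and Esam) were met in no BMDM library. On the erythroid, B cell, T and NK cell and neutrophil lists, H3K27ac met 1 of 6 genes each in most HSC libraries. These were Klf1 and Vpreb1 in 12 of 12 and Lck and Prtn3 in 7. H3K27ac also met Klf1 in 10 of 11 unstimulated and 12 of 12 LPS+IFN-γ BMDM libraries and Vpreb1 in 11 and 12. The other erythroid and B cell genes were met in no BMDM library. Of 6 stromal genes, 0 were met in most libraries of any state. A single marker promoter thus did not identify a cell type. Of 8 genes induced by LPS and IFN-γ, H3K27ac met Il6, Il1b, Il12b, Cxcl9, Cxcl10 and Acod1 in no LPS+IFN-γ library. It met Nos2 in 8 of 12 (3 of 11 unstimulated), and Ptgs2 in 12 of 12 but also in 9 of 11 unstimulated and 8 of 12 HSC libraries. Nos2, the nitric oxide synthase induced by LPS and IFN-γ, had H3K27ac percentiles of 76.4 and 64.7 in unstimulated control libraries 5 and 6, above the 38.7 to 60.7 of the other 9. It had 51.1 in LPS+IFN-γ control library 5, the lowest of its 12. The gene-by-gene comparisons that hold these 3 libraries were also run without them.

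The sequence just before the start site is printed for 6 genes that show the range of patterns. They are Foxk2 (both marks in nearly all libraries), Sox12 (H3K27ac in HSCs only), Lhx2 (H3K27ac in BMDMs only), Foxc1 (H3K4me3 alone), Sox2 (H3K4me3 mainly in HSCs) and Tbx22 (neither mark in the 10000 strongest peaks of any list). Each is 230 bases upstream of a RefSeq start on GRCm38.p6, 5′ to 3′ on the strand of the gene, outside annotated exons, with every CG dinucleotide in capitals. The positions are chr11:121259737-121259966 (plus strand), chr2:152398067-152398296 (minus strand), chr2:38339031-38339260 (plus strand), chr13:31806396-31806625 (plus strand), chr3:34649745-34649974 (plus strand) and chrX:107676262-107676491 (plus strand).
Foxk2: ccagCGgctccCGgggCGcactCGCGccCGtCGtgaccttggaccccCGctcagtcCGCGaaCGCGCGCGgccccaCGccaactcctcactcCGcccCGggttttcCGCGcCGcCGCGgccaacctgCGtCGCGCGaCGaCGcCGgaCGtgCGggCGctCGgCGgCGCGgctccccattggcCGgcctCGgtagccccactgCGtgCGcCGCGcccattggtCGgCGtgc
Sox12: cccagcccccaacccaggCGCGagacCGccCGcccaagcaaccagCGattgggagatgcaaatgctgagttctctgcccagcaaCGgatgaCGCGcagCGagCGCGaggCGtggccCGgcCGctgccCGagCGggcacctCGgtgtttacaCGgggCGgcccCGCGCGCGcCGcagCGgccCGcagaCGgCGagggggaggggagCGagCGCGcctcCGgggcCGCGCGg
Lhx2: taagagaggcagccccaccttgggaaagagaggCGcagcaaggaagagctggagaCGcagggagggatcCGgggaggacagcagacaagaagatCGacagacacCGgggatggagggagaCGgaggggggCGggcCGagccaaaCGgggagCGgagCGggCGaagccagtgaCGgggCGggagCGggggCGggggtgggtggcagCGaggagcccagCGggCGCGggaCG
Foxc1: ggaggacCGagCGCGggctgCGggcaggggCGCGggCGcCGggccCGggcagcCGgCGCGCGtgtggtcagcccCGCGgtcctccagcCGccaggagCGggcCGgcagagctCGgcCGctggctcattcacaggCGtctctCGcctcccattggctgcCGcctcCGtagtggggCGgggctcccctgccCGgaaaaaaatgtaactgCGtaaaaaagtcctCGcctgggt
Sox2: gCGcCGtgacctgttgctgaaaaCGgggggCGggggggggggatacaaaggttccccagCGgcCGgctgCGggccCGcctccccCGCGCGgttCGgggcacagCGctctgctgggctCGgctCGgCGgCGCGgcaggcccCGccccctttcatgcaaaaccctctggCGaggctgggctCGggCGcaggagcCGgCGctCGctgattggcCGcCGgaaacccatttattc
Tbx22: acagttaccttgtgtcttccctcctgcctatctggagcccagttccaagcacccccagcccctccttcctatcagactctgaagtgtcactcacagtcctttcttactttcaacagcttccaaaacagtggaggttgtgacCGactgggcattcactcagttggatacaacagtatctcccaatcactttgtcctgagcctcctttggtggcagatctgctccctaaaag
The Foxk2 stretch holds 44 CG, the Sox12 stretch 35, the Foxc1 stretch 28, the Sox2 stretch 27, the Lhx2 stretch 21 and the Tbx22 stretch 1. Peaks were counted over the whole RefSeq promoter entry, which holds the printed stretch and runs on past its end, and not over the stretch alone. H3K27ac peaks among the 10000 strongest lay over the Sox12 entry in 12 of 12 HSC libraries and in 0 of 11 unstimulated BMDM libraries. Over the Lhx2 entry they lay in 0 HSC, 8 unstimulated and 10 LPS+IFN-γ libraries. Over the Foxk2 entry H3K27ac lay in 12, 9 and 10 libraries and H3K4me3 in 8, 5 and 7. H3K4me3 lay over the Foxc1 entry in 11, 10 and 10 and over the Sox2 entry in 10, 2 and 2. No such peak of either mark lay over the Tbx22 entry.

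H3K4me3 was common at these promoters and H3K27ac was rare. In HSCs, H3K4me3 marked 63.1% ± 8.55 of the 96 promoters (SD, n = 12 libraries, 43.8 to 72.9), against 39.9% ± 2.56 of all genes. The shares were 52.2% ± 6.48 (n = 11) in unstimulated and 48.3% ± 11.5 (n = 12) in LPS+IFN-γ BMDMs, against 41.1% ± 1.43 and 40.8% ± 2.34 of all genes. H3K27ac marked 18.4% ± 1.56 of the 96 promoters in HSCs (15.6 to 20.8), 15.7% ± 3.04 in unstimulated BMDMs (11.5 to 21.9) and 13.1% ± 2.15 in LPS+IFN-γ BMDMs (8.33 to 16.7). Among all genes it marked 42.9% ± 1.59, 40.0% ± 1.71 and 39.2% ± 3.06. In every one of the 3 cell states the developmental genes thus lay above the share of all genes for H3K4me3 on average and far below it for H3K27ac.

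**Figure D1:**
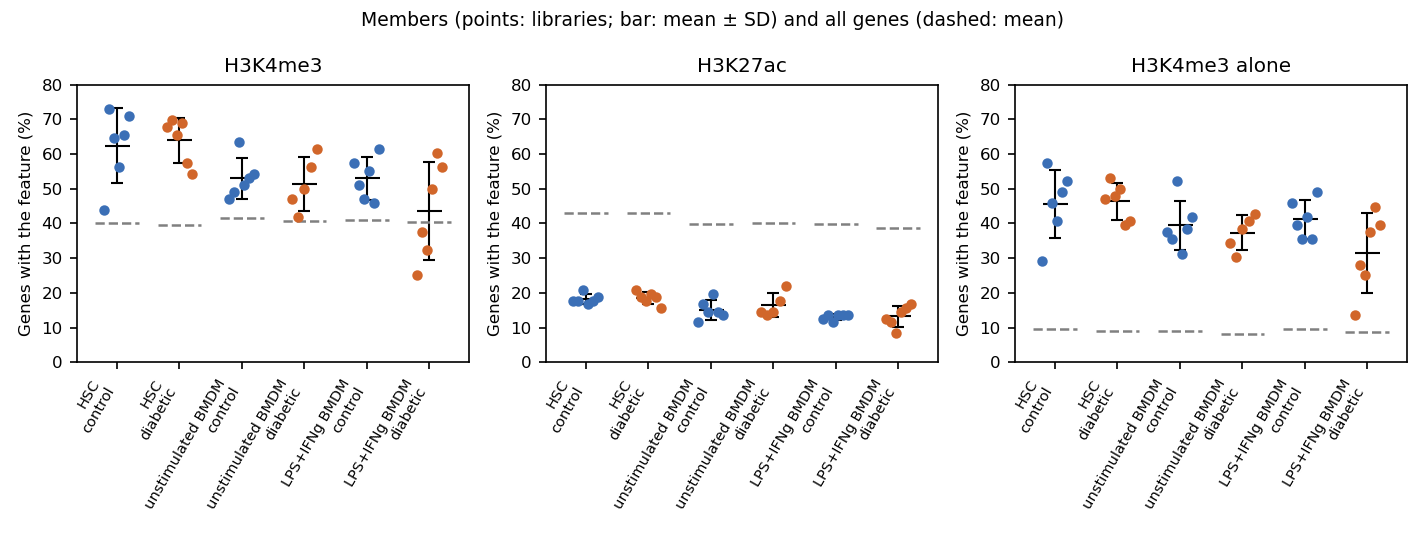
Share of the 96 promoters (%, y axis) marked by H3K4me3, H3K27ac or H3K4me3 alone in each library (point), by cell state and disease (x axis), with control libraries in blue and diabetic libraries in orange; the bar is the mean ± SD of a group and the dashed line the mean share of all protein-coding genes in it. With control and diabetic libraries pooled, H3K4me3 alone covered means of 46.0, 38.4 and 36.3% of these promoters in HSCs, unstimulated and LPS+IFN-γ BMDMs, against 9.2, 8.7 and 9.21% of all genes.

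The combination of marks at these promoters differed from that over all genes. H3K4me3 without H3K27ac was found at 46.0% ± 7.55 of the 96 promoters in HSCs (29.2 to 57.3), 38.4% ± 6.05 in unstimulated BMDMs (30.2 to 52.1) and 36.3% ± 9.95 in LPS+IFN-γ BMDMs (13.5 to 49.0). The lowest library of each cell state stood above the mean of all genes, 9.2, 8.7 and 9.21%. Of the members' promoters that carried H3K4me3, 27.4% ± 3.31 also carried H3K27ac in HSCs (21.4 to 33.3), 26.4% ± 5.57 in unstimulated BMDMs and 25.7% ± 6.84 in LPS+IFN-γ BMDMs. Over all genes these shares were 76.8% ± 2.75, 78.8% ± 4.13 and 77.1% ± 5.6, and the highest developmental library (45.8%) lay below the lowest library of all genes (66.7%). H3K27ac without H3K4me3 was found at 1.3, 1.99 and 1.13% of the 96, against 12.3, 7.58 and 7.68% of all genes.

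Other developmental genes were read in the same way for comparison. The 39 Hox genes, which pattern the body axis, carried H3K4me3 at 62.0, 51.3 and 56.6% of promoters in HSCs, unstimulated and LPS+IFN-γ BMDMs, and 11.7, 15.5 and 13.2% of those carried H3K27ac too. Among 63 factors of the Nkx, Dlx, Irx, Zic, Neurog and similar families, H3K4me3 reached 62.3, 45.7 and 40.6%, and only 1.66, 2.41 and 2.82% of those promoters also carried H3K27ac. The 96 genes thus held more promoters with both marks than either comparison list in the same libraries. No test was made of these lists, and the values depend on how many peaks are read. With each list as deposited, H3K4me3 met 88.4, 94.8 and 94.5% of the 96 promoters, which turns the order of HSCs and BMDMs, and H3K27ac met 65.9, 75.9 and 70.7%.

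Each gene was then given the state it had in a majority (18 or more) of the 35 pairs. Both marks were found at 13 genes, H3K4me3 alone at 40, H3K27ac alone at 1 and neither at 40, and 2 genes (Six5 and Sox30) had no state in most pairs. Among all genes, 33.8% carried both marks in most pairs, 6.05% H3K4me3 alone, 4.12% H3K27ac alone and 49.5% neither. Within the cell states, both marks, H3K4me3 alone and neither were found in most pairs at 17, 44 and 30 of the 96 genes in HSCs, at 13, 37 and 43 in unstimulated and at 11, 31 and 43 in LPS+IFN-γ BMDMs. The families divided unevenly. Of the 42 Fox genes, 11 carried both marks, 16 H3K4me3 alone and 14 neither, and of the 19 Sox genes 1, 7 and 10 did. Of the 13 Tbx genes 0, 6 and 7 did, of the 8 Lhx genes 1, 6 and 1, of the 8 Pax genes 0, 2 and 6, and of the 6 sine oculis genes 0, 3 and 2. No Pax, Tbx or sine oculis gene carried both marks in most pairs. H3K27ac met 67 of the 96 promoters in none of the 35 lists, or 69.8% against 45.0% of all genes, and 59 of the 67 carried H3K4me3 in at least 1 list.

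**Figure D2:**
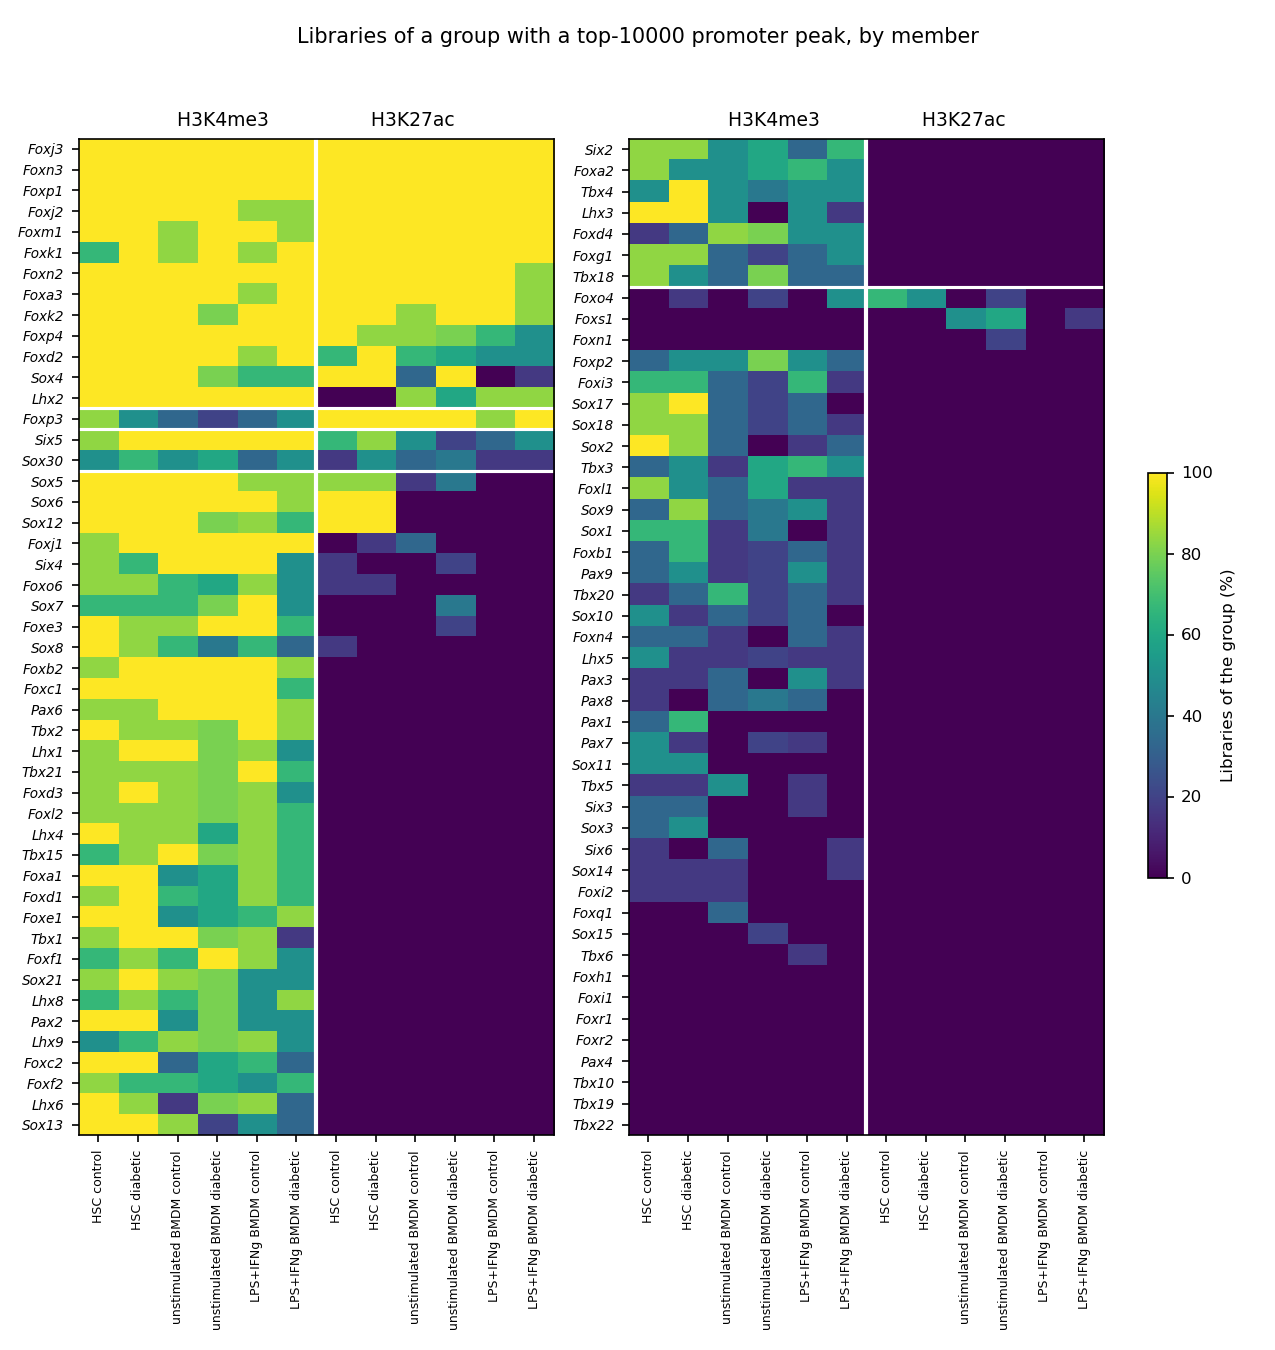
Heat map of the share of libraries (%, colour) with a peak among the 10000 strongest at the promoter of each of 95 of the 96 genes, one line per gene, in control and diabetic libraries of the 3 cell states (columns) for each mark. White lines divide the genes by their state in most of the 35 pairs, from both marks (13 genes) through H3K27ac alone (1) and no majority (2) to H3K4me3 alone (39 shown) and neither (40).

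Of the 13 genes with both marks in most pairs, 11 were Fox genes. Foxj3, Foxn3 and Foxp1 carried both marks in 35 of 35 pairs. Foxp1 serves B-cell and monocyte development, and Foxn3 acts in a cell-cycle checkpoint. H3K27ac at Foxp1 had percentiles of 83.1, 91.6 and 97 (lowest, median and highest library) in HSCs, 79.2, 91.6 and 97 in unstimulated BMDMs and 70.8, 80.3 and 92.9 in LPS+IFN-γ BMDMs. At Foxn3 the medians were 85.4, 84.3 and 79.9. Every library of every group thus placed Foxp1 in the upper part of its promoters, with overlap between the cell states. Foxj2, Foxk1 and Foxm1 also had H3K27ac in all 35 lists, Foxn2 in 34, Foxk2 in 33 and Foxp4 in 27. Foxk1 and Foxk2 govern genes of autophagy and glycolysis, and Foxm1 drives the genes of mitosis. The H3K27ac percentile of Foxm1 was 89.2, 95.4 and 99.3 in HSCs, 80.7, 86.1 and 96.8 in unstimulated BMDMs and 74.0, 87.9 and 96.1 in LPS+IFN-γ BMDMs.

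For several of these genes, the peak also lay over a neighbour. Foxj3 shares its promoter with Frg2f1, Foxm1 with Rhno1, Foxa3 (a liver factor) with Sympk, and Foxp3 (the factor of regulatory T cells) with Ppp1r3f. In each of the 4, every list that met the promoter did so by a peak that met the neighbour as well, so the signal cannot be given to one gene. Foxp3 was the gene with H3K27ac alone in most of the 35 pairs. H3K27ac, with or without H3K4me3, met it in 34 of 35 lists and H3K4me3 in 16. By cell state, Foxp3 had H3K27ac alone in most unstimulated BMDM pairs, both marks in most HSC pairs and no majority in LPS+IFN-γ BMDMs. Its peaks lay at the outer start on chromosome X at 7573644, which falls within 1 kb of a Ppp1r3f start, in 12 HSC, 11 unstimulated and 11 LPS+IFN-γ lists. Its 2 inner groups of starts, at 7579567 to 7580483 and at 7586273 to 7586355, met no H3K27ac or H3K4me3 peak in any list.

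The 40 genes with H3K4me3 alone in most pairs included factors of eye, kidney, gonad, cilia and mesenchyme. The state was found in 33 of 35 pairs at Foxb2 and at Foxc1, a factor of mesenchyme and of marrow stromal cells, and in 32 at Pax6, the eye selector gene. It was also found in 31 pairs at Foxj1 (motile cilia) and Tbx2, in 30 at Foxe3 (lens) and in 29 at Lhx1 (kidney and head) and Tbx21 (T-bet, the factor of type 1 helper T cells). Foxd3 (neural crest), Foxl2 (ovary), Lhx4 (pituitary) and Tbx15 had 28. The rank of these promoters varied between libraries, and some libraries placed them outside the 10000 strongest peaks. Where marked, the promoters of the 40 genes had median H3K4me3 percentiles of 78.1, 71.9 and 72.6 in HSCs, unstimulated and LPS+IFN-γ BMDMs. All genes with a peak had 79.7, 79.3 and 79.3. The H3K4me3 percentile of Foxc1 was 63.7, 81.6 and 98.8 in HSCs, 63.8, 79.5 and 96.7 in unstimulated BMDMs and 47.6, 75.6 and 93.6 in LPS+IFN-γ BMDMs. Pax6 had medians of 67.3, 85.9 and 76.2, and Tbx21 of 67.3, 70.5 and 72.8. Foxc1, Pax6 and Tbx21 had H3K27ac among the 10000 strongest peaks in 0 of 35 lists.

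The 40 genes with neither mark in most pairs included Pax3 and Pax7 (muscle), Pax8 (thyroid), Sox9 (cartilage), Sox10 (neural crest and glia), Tbx5 (heart) and Foxn1 (thymic epithelium). H3K4me3 met Pax3 in 8 lists of 35, Pax7 in 6, Pax8 in 7, Sox9 in 15, Sox10 in 9, Tbx5 in 6 and Foxn1 in none. Neither mark met Foxh1, Foxi1, Foxr1, Foxr2, Pax4, Tbx10, Tbx19 and Tbx22 in any list, 8.33% of the 96 against 34.1% of all genes. In the lists as deposited, Foxr2 had no promoter peak of either mark in any of the 70, and Tbx22 had one in 1 H3K4me3 list. Foxh1, a partner of the Smad proteins, had a weaker H3K27ac peak in 12 of 12 HSC lists, at percentiles of 38.5 to 50.8. A gene counted as unmarked could thus still have signal below the 10000 strongest peaks.

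HSCs and unstimulated BMDMs were compared gene by gene over all 21938 genes, with a two-sided Fisher's exact test on the number of libraries with the mark and Benjamini-Hochberg adjustment, at an adjusted p below 0.05. H3K27ac differed at 5 of the 96 genes (5.21%), against 5.53% of all genes. It was higher in HSCs at 3, against 3.82% of all genes, and lower at 2, against 1.71%. H3K4me3 differed at 2 (2.08%), both higher in HSCs, against 1.10% of all genes in either direction, 0.561% higher and 0.538% lower. H3K4me3 alone differed at 7 (7.29%), 5 higher and 2 lower, against 2.21% of all genes, 1.34% higher and 0.866% lower. This state is read from the same 2 marks, so its calls are not independent of theirs. Only genes held by neither too few nor nearly all lists can pass. Of those that could, 7 of 58 members (12.1%) and 13.1% of all genes were called for H3K4me3 alone, 2 of 50 (4.0%) and 3.59% for H3K4me3, and 5 of 10 (50.0%) and 36.8% for H3K27ac. For H3K27ac the share called was close to the background over all 96 genes and above it among the 10 that could pass. For H3K4me3 alone it was above the background over all 96 and close to it among the 58 that could pass. Which share lay close to the background thus depended on the denominator.

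Sox12 and Sox6 carried H3K27ac among the 10000 strongest peaks in every HSC library and in no BMDM library. How many of all genes separated this completely, in lists or in percentiles, was not counted. Sox12 belongs with Sox4 and Sox11 to one subgroup of the family, and Sox6 acts in red cell maturation and cartilage. H3K27ac at Sox12 had percentiles of 61.5, 69.0 and 79.5 in HSCs (n = 12), 35, 45.3 and 57.2 in unstimulated BMDMs (n = 11) and 17.8, 44.5 and 52.4 in LPS+IFN-γ BMDMs (n = 12). The lowest HSC library lay above the highest BMDM library, and the median fold enrichment over input was 7.58, 3.52 and 3.75. The mark met 12 of 12 HSC and 0 of 11 unstimulated BMDM lists (adjusted p = 4.44e-05, Fisher's exact test). H3K27ac at Sox6 had percentiles of 56.8, 61.1 and 67.6 in HSCs, 36.8, 46.7 and 53.9 in unstimulated BMDMs and 39.8, 46.3 and 53.5 in LPS+IFN-γ BMDMs, again without overlap, and the same counts of lists and adjusted p. H3K4me3 met Sox12 in 12, 10 and 9 lists and Sox6 in 12, 11 and 11. Within these 10000 peaks, H3K4me3 alone met Sox12 in 0 of 12 HSC and 10 of 11 unstimulated pairs (adjusted p = 0.00127, Fisher's exact test) and Sox6 in 0 and 11 (adjusted p = 0.000304, Fisher's exact test).

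Sox4 and Sox5 moved in the same direction with less separation. Sox4, needed for B-lymphoid progenitors, carried H3K27ac in 12 of 12 HSC, 7 of 11 unstimulated and 1 of 12 LPS+IFN-γ lists. Its percentiles were 61.7, 66.4 and 81.5 in HSCs, 51.7, 59.7 and 72.1 in unstimulated BMDMs and 20.9, 52.3 and 59.4 in LPS+IFN-γ BMDMs, and HSCs overlapped unstimulated but not LPS+IFN-γ BMDMs. The difference between HSCs and unstimulated BMDMs did not pass (adjusted p = 0.0765, Fisher's exact test). Sox5 had H3K27ac in 10 of 12 HSC and 3 of 11 unstimulated lists (adjusted p = 0.0373, Fisher's exact test), at percentiles of 52.8, 62.1 and 68.7 against 48.5, 53.9 and 68.4. The Sox5 call was kept in 5 of 23 repeats that left out 1 library, whereas those of Sox12, Sox6, Lhx2 and Foxs1 were kept in 23 of 23. Foxo4, like Foxo1 and Foxo3 a target of insulin signalling, had the mark in 7 of 12 and 1 of 11 lists (adjusted p = 0.07, Fisher's exact test).

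Lhx2 and Foxs1 went the other way. Lhx2, a factor of forebrain, eye and hair follicle stem cells that expands blood progenitors when forced on in them, carried H3K27ac in 0 of 12 HSC, 8 of 11 unstimulated and 10 of 12 LPS+IFN-γ lists. The call between HSCs and unstimulated BMDMs had an adjusted p of 0.00297 (Fisher's exact test). Its percentiles were 21.6, 40.3 and 53.5 in HSCs, 49.6, 60.4 and 91.4 in unstimulated BMDMs and 58.3, 75.0 and 93.2 in LPS+IFN-γ BMDMs. The 2 highest unstimulated values, 91.4 and 79.6, were those of control libraries 6 and 5. H3K4me3 met Lhx2 in all 35 lists, so the gene carried H3K4me3 alone in 12 of 12 HSC and 3 of 11 unstimulated pairs (adjusted p = 0.00804, Fisher's exact test). That call is the H3K27ac call turned round and adds no separate result. Foxs1, expressed in cells around blood vessels and in sensory neurons, had H3K27ac in 0, 6 and 1 lists (adjusted p = 0.0173, Fisher's exact test) and H3K4me3 in none. Its percentiles were 16.6, 37.5 and 45.6 in HSCs, 47.4, 60.6 and 68.6 in unstimulated BMDMs and 20.9, 53.4 and 62.5 in LPS+IFN-γ BMDMs. HSC and unstimulated libraries did not overlap at Foxs1, and such a lack of overlap was not counted over all genes.

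H3K4me3 was called higher in HSCs at Lhx3 and Sox2. Lhx3, a factor of pituitary and motor neurons, met H3K4me3 in 12 of 12 HSC and 3 of 11 unstimulated lists (adjusted p = 0.0231, Fisher's exact test), at percentiles of 64.2, 75.4 and 99.0 against 50.9, 57.6 and 74.7. Sox2, the pluripotency and neural stem cell factor, met it in 11 and 2 (adjusted p = 0.0274, Fisher's exact test), at 58.2, 74.6 and 96.6 against 43.3, 55.0 and 64.4. Neither gene had H3K27ac in any list, and the groups overlapped at both. The endothelial factors Sox17 (11 and 3 lists) and Sox18 (10 and 3) and Foxc2, a factor of mesenchyme and lymphatic vessels (12 and 5), had adjusted p of 0.0559, 0.0963 and 0.0596 for H3K4me3 (Fisher's exact test). For H3K4me3 alone, Lhx3 (adjusted p = 0.00804), Sox2 (0.0121), Sox17 (0.0303) and Foxc2 (0.0349) passed the Fisher's exact test as higher in HSCs. None of these genes had H3K27ac in any list, so their counts for H3K4me3 alone were those for H3K4me3. The unadjusted p was the same, and only the adjustment differed, over 3701 genes here and 6722 for H3K4me3. Sox17 and Foxc2 thus passed by the adjustment alone, and these calls add no separate result. Lhx3 kept its H3K4me3 call in 19 and Sox2 in 11 of 23 repeats without 1 library, and for H3K4me3 alone Sox17 kept it in 12 and Foxc2 in 5.

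**Figure D3:**
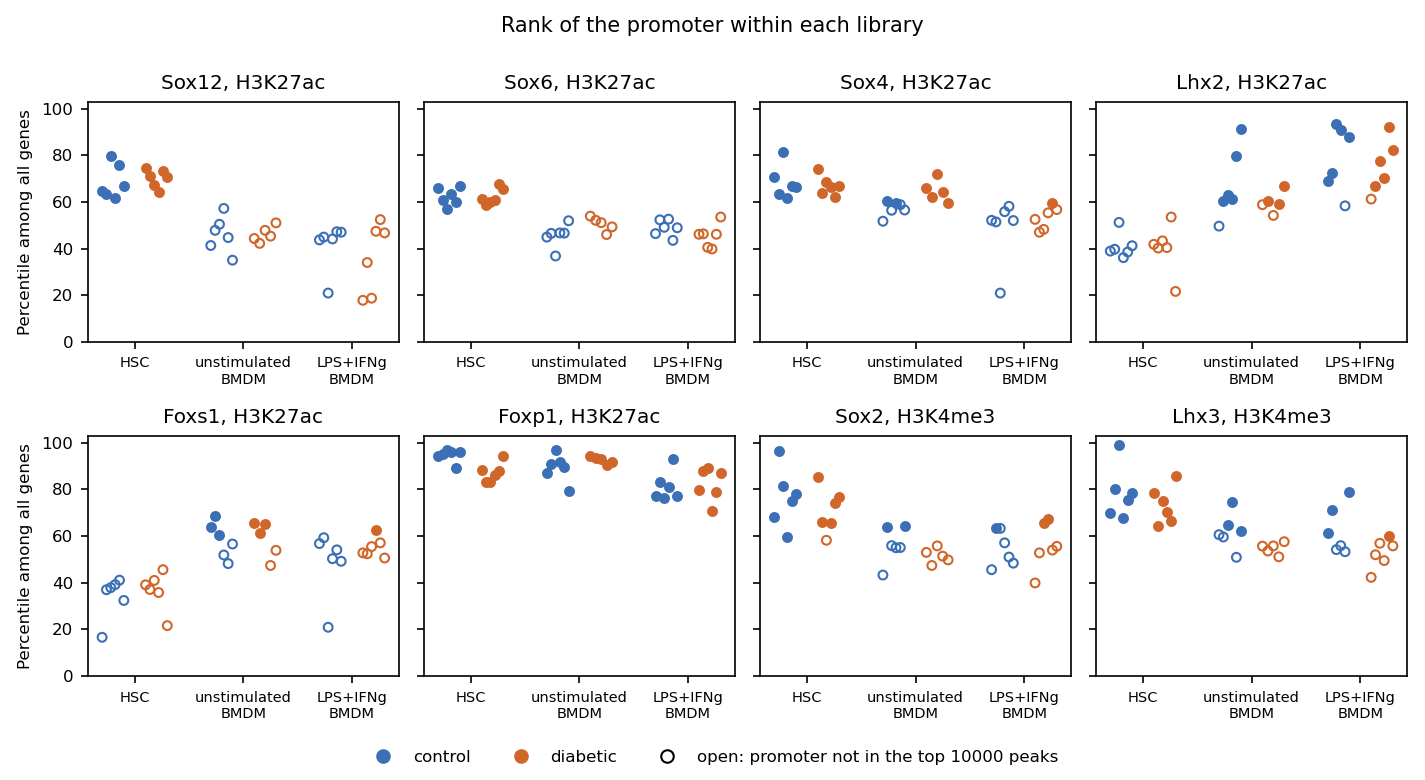
Percentile (y axis, 100 is the strongest promoter of a library) of H3K27ac at Sox12, Sox6, Sox4, Lhx2, Foxs1 and Foxp1 and of H3K4me3 at Sox2 and Lhx3 in each library, by cell state (x axis), with control in blue and diabetic in orange; filled points had a peak among the 10000 strongest and open points did not. At Sox12 the HSC libraries (61.5 to 79.5) lie above all BMDM libraries (17.8 to 57.2), at Foxs1 they lie below the unstimulated BMDM libraries, and at Foxp1 the 3 cell states overlap.

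These calls rest on rank within a list. With the 20000 strongest peaks, H3K27ac met Sox12 in 12 and 3, Sox6 in 12 and 4, Lhx2 in 2 and 10 and Foxs1 in 0 and 9 lists of HSCs and unstimulated BMDMs, and all 4 still passed (adjusted p of 0.00363, 0.00982, 0.00593 and 0.00115, Fisher's exact test). In the lists as deposited, H3K27ac met Sox12 and Sox6 in 12 of 12 and 11 of 11, Lhx2 in 11 and 11 and Foxs1 in 10 and 11, so nearly all libraries held a peak of some strength. H3K4me3 met Lhx3 in 12 and 11 and Sox2 in 12 and 10 lists with 20000 peaks, and neither was called. For H3K4me3 alone with 20000 peaks, Sox17 turned to 9 of 12 HSC and 11 of 11 unstimulated pairs and Foxc2 had 12 and 11, and in the lists as deposited they had 3 and 3 and 6 and 5, so neither was called. Sox6 was not called with a window of 500 bp for H3K27ac (5 and 0 lists, adjusted p = 0.0766, Fisher's exact test) or H3K4me3 alone (5 and 10 pairs, 0.108). With peaks ranked by fold enrichment, H3K27ac met Sox12 in 8 and 0 lists, which passed, and Sox6 in 7 and 1 (adjusted p = 0.103, Fisher's exact test). H3K4me3 alone then met Sox12 in 4 and 4 and Sox6 in 5 and 10 pairs (adjusted p of 1.0 and 0.256, Fisher's exact test), and none of the 7 genes was called for it. With libraries of the same number taken as a replicate block, Sox12 and Sox6 (adjusted p = 0.0211 each) and Lhx2 (0.0298) passed an exact McNemar test, and Foxs1 (0.0562) and Sox5 (0.113) did not. Without the 3 control libraries, H3K27ac met Sox12 and Sox6 in 12 of 12 and 0 of 9 lists (adjusted p = 0.000153 each) and Lhx2 and Foxs1 in 0 and 6 (0.0101 each, Fisher's exact test). Of the calls, Sox5 for H3K27ac (adjusted p = 0.0743, Fisher's exact test) and Foxc2 for H3K4me3 alone (0.0937) were then lost.

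The percentiles were also fitted with limma, a linear model with a variance shared across genes, with disease as a covariate. Percentiles of weak promoters depend on how long a list is, and the H3K4me3 lists of HSCs (13730 to 145750 peaks) were shorter than those of unstimulated BMDMs (66146 to 212718). Their part in the differences was not tested. For H3K27ac, 30 of 93 genes passed (32.3%), 9 higher in HSCs and 21 lower, against 30.8% of all genes, 15.6% higher and 15.1% lower. Sox12 was 23.3 points higher (limma adjusted p = 1.09e-07), Sox6 14.4 (4.42e-06), Sox4 6.86 (0.0323), Foxm1 6.86 (0.0191) and Foxk2 9.07 (0.0484). Lhx2 differed by -23.3 points (limma adjusted p = 4.41e-05) and Foxs1 by -23.2 (3.97e-06). Of the 21 lower genes, 15 had no H3K27ac peak among the 10000 strongest in any of the 23 libraries, among them Sox9 (-14.6), Lhx3 (-14.0) and Tbx20 (-15.4). Sox5 missed the threshold (5.88 points, limma adjusted p = 0.0626). Without unstimulated control libraries 5 and 6, limma called 24 of 93 (25.8%), 8 higher and 16 lower, against 29.3% of all genes, 14.8% higher and 14.5% lower, and of the genes named Sox4 was then lost (limma adjusted p = 0.0668).

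For H3K4me3, limma called 27 of 95 genes (28.4%), 20 higher in HSCs and 7 lower, against 16.6% of all genes, 7.34% higher and 9.28% lower. The higher genes included Foxc2 (22.5 points, limma adjusted p = 0.000281), Sox2 (19.9, 0.00171), Sox12 (18.1, 0.00313), Foxa1, a pioneer factor of endoderm (17.9, 0.0132), Lhx3 (17.5, 0.00264), Sox18 (17.5, 0.0106), Sox4 (13.3, 0.0316) and Sox17 (11.8, 0.0413). The lower genes included Pax6 (-16.3, limma adjusted p = 0.00653) and Foxd4 (-16.2, 0.0231). Pax6, at percentiles of 58.5 to 73.2 in HSCs and 58.0 to 93.9 in unstimulated BMDMs, stayed among the 10000 strongest peaks in 10 of 12 and 11 of 11 lists. Without unstimulated control libraries 5 and 6, 16 of 95 (16.8%) were called, 14 higher and 2 lower, against 11.2% of all genes, 5.12% higher and 6.09% lower. Sox17 (limma adjusted p = 0.0785), Sox4 (0.0548) and Foxd4 (0.0761) were then not called.

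LPS+IFN-γ and unstimulated BMDMs were compared in the same way. With p-values adjusted by Benjamini-Hochberg, Fisher's exact test called 0 of the 96 genes and 0% of all genes for either mark and for H3K4me3 alone. Of the 96, 8 could reach a p of 0.05 for H3K27ac, 52 for H3K4me3 and 59 for H3K4me3 alone. Without adjustment, 2 members had a p below 0.05 for H3K27ac, out of 295 genes in all, and 0 for H3K4me3 and H3K4me3 alone, out of 180 and 158. The 2 were Sox4 (1 of 12 against 7 of 11 lists, p = 0.00942, adjusted p = 0.363, Fisher's exact test) and Foxs1 (1 against 6, p = 0.0272, adjusted p = 0.418, Fisher's exact test), both lower after LPS+IFN-γ. With limma, 0% of genes passed for H3K4me3 and 0.425% for H3K27ac, with Pax4, a factor of pancreatic islets, the only member (21.4 points, limma adjusted p = 0.0463). Pax4 never reached the 10000 strongest peaks, and its percentiles were 13.2, 17.3 and 51.7 in unstimulated and 14.5, 45.5 and 59.7 in LPS+IFN-γ BMDMs.

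Without the 3 control libraries, limma called 3.71% of all genes for H3K27ac (1.43% higher and 2.28% lower) and 0.0110% for H3K4me3. Those libraries stood apart in the same contrast, so leaving them out favours a difference. The members called were 5 of 93 for H3K27ac (5.38%) and 0 for H3K4me3. Lhx2 rose by 19.1 points (limma adjusted p = 0.00602, against 13.0 and 0.194 with all libraries), and Pax4 by 27.3 (0.0002). Foxp1 differed by -11.3 (limma adjusted p = 0.00962, against -9.03 and 0.102 with all libraries), Six3 by -11.6 (0.0184) and Sox18 by -14.9 (0.034). Sox4 differed by -11.1 (limma adjusted p = 0.0745). Six3 and Sox18, like Pax4, had no H3K27ac peak among the 10000 strongest in any list.

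Diabetic and control libraries were compared within each cell state, at 6 against 6 or 5 against 6 libraries. After the same adjustment, Fisher's exact test called 0 of the 96 genes and 0% of all genes in HSCs, unstimulated and LPS+IFN-γ BMDMs, for H3K4me3, H3K27ac and H3K4me3 alone. Few members could reach a p of 0.05 at all. In the 3 cell states these were 10, 21 and 18 of the 96 for H3K4me3, 1, 5 and 3 for H3K27ac and 10, 24 and 20 for H3K4me3 alone. The test could therefore say nothing of most members. At these sizes the lowest possible p is 0.00216, and 0 members had an unadjusted p below 0.05 in any of the 9 tests. Over all genes, 8, 19 and 18 did for H3K4me3, 4, 15 and 3 for H3K27ac and 4, 16 and 16 for H3K4me3 alone. With limma, 0% of genes passed in the 3 cell states for H3K4me3, and 0.00578, 0 and 0.00578% for H3K27ac, with 0 members. Without the 3 control libraries limma gave 0 and 0.00557% for H3K4me3 and 0 and 0.00581% for H3K27ac in unstimulated and LPS+IFN-γ BMDMs, again with 0 members. A limma fit with the 5 numbered pairs of unstimulated BMDMs as a replicate block called 0% of genes for either mark. A p that misses the threshold does not show that the groups were alike.

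The members with the smallest p were as follows. Sox4 had H3K27ac in 5 of 5 diabetic and 2 of 6 control unstimulated BMDM lists (p = 0.0606, Fisher's exact test, adjusted p = 1.0). Its percentiles were 65.9, 62.0, 72.1, 64.2 and 59.7 in the diabetic libraries and 51.7 to 60.3 in the control ones, a difference of 7.56 points (limma adjusted p = 0.985), and the groups overlapped only by the lowest diabetic and highest control values. Without control libraries 5 and 6 the mark met 5 of 5 and 2 of 4 lists, and the difference was 7.76 points (limma adjusted p = 0.994). H3K4me3 met Tbx1 in 1 of 6 diabetic and 5 of 6 control LPS+IFN-γ lists (p = 0.0801, Fisher's exact test). In unstimulated BMDMs it met Lhx6 in 4 of 5 and 1 of 6 lists and Sox13 in 1 of 5 and 5 of 6 (p = 0.0801 each, Fisher's exact test). Without the 3 control libraries the counts were 1 of 6 and 4 of 5 for Tbx1, 4 of 5 and 1 of 4 for Lhx6 and 1 of 5 and 4 of 4 for Sox13. Tbx1 is a factor of the pharyngeal arches, Lhx6 of cortical interneurons.

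The share of the 96 promoters with H3K4me3 alone was 45.7% ± 9.85 in control and 46.4% ± 5.3 in diabetic HSCs (n = 6 each), and 39.4% ± 7.11 (n = 6) and 37.3% ± 5.02 (n = 5) in unstimulated BMDMs. In LPS+IFN-γ BMDMs it was 41.1% ± 5.5 and 31.4% ± 11.4 (n = 6 each). H3K4me3 with or without H3K27ac met 53.0% ± 6.12 and 43.6% ± 14.1 there, and H3K27ac 13.0% ± 0.872 and 13.2% ± 3.07. The lower diabetic mean came from libraries 1, 2 and 3, with H3K4me3 at 25.0, 37.5 and 32.3% of the 96 promoters and 41.4, 40.8 and 35.4% of all genes. The other 3 diabetic libraries, at 50.0, 60.4 and 56.2%, lay in the range of the controls (45.8 to 61.5). Without the 4 H3K4me3 libraries of unclear scaling in an earlier reading of these data, diabetic libraries 1 and 2 among them, the share over all LPS+IFN-γ BMDMs was 50.6% in place of 48.3%.

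Where a gene has several start sites, the marks were read at each. Start sites were put in one group when they lay within 2 kb of each other. Lhx2 on chromosome 2 has a first group at 38339281 to 38341092 and a second at 38350759 to 38353802. H3K27ac met the first in 0 HSC, 8 unstimulated and 10 LPS+IFN-γ lists and the second in 0, 1 and 0, while H3K4me3 met both, in 10, 9 and 12 and in 12, 11 and 11 lists. Sox6 on chromosome 7 has 9 groups, and H3K27ac met only those at 116031047 (12, 0 and 0 lists) and at 116033602 to 116034513 (8, 0 and 0). Sox5 on chromosome 6 carried both marks only at the outermost of 4 groups, at 144781919 to 144781977, with H3K27ac in 10, 3 and 0 and H3K4me3 in 12, 11 and 10 lists. No transcript from that start has the basic tag of the annotation, and with basic starts alone H3K27ac at Sox5 fell to 0 lists in HSCs and unstimulated BMDMs. Foxp1 on chromosome 6 has 11 groups, and both marks met the groups at 99027991 to 99028942 and at 99520997 to 99522721 in 10 or more lists of each cell state.

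**Figure D4:**
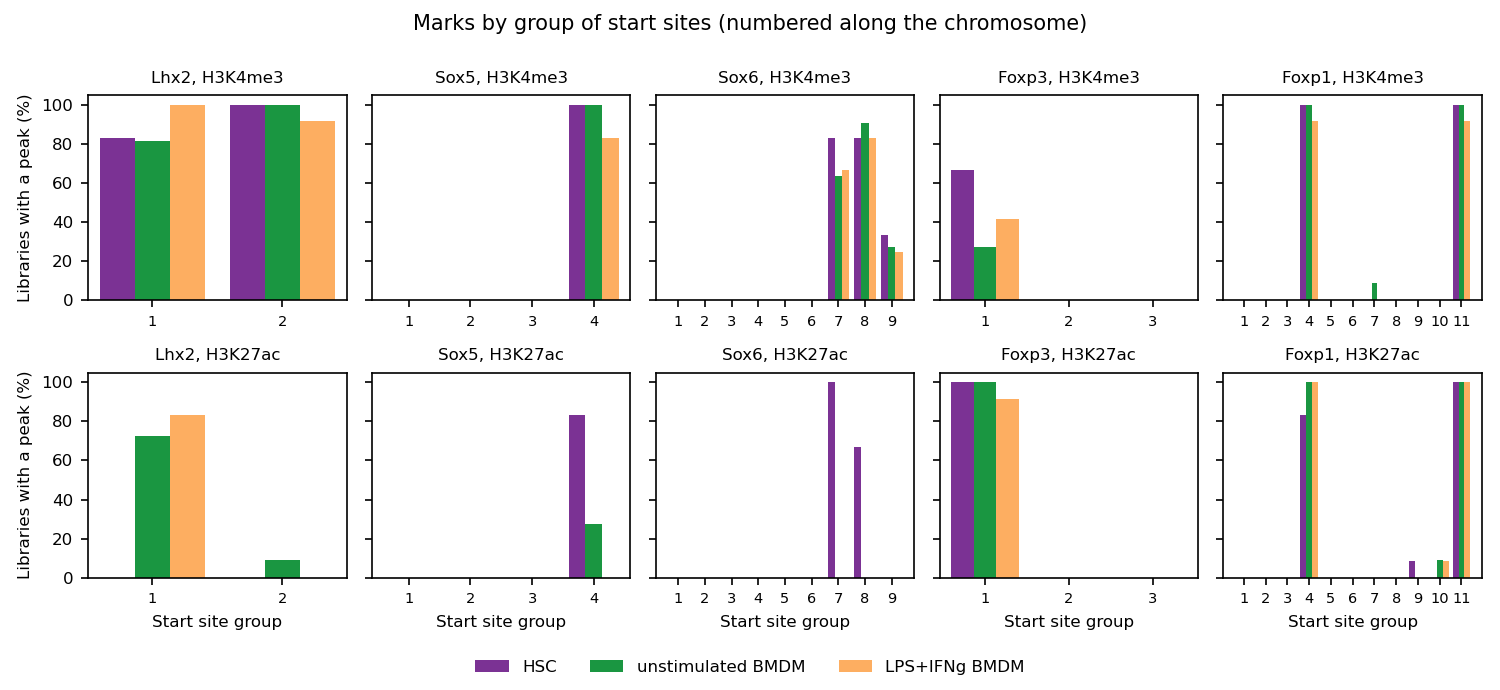
Share of libraries (%, y axis) with a peak among the 10000 strongest at each group of start sites (x axis, numbered by position) of Lhx2, Sox5, Sox6, Foxp3 and Foxp1, for both marks and the 3 cell states. At Lhx2, H3K27ac of BMDMs lies mainly at the first group while H3K4me3 lies at both, and at Foxp3 every peak lies at the first group, which is shared with Ppp1r3f.

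Neighbouring members of these families were compared. Of 13 pairs of the 96 genes within 200 kb of each other, 5 had the same state in most pairs of libraries and 8 did not. With H3K4me3 alone and neither mark at 40 of the 96 genes each, members far apart often share a state too. How often was not computed, so the count is a description only. Foxd2 carried both marks and Foxe3, 16.3 kb away, H3K4me3 alone. Foxc2 carried H3K4me3 alone and Foxl1, 9.0 kb away, neither mark in most pairs. Six3 carried neither and Six2, 55.0 kb away, H3K4me3 alone. Tbx2 and Tbx4 (44.5 kb), Foxf1 and Foxc2 (28.0 kb) and Foxf2 and Foxc1 (175.2 kb) shared H3K4me3 alone.

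H3K4me3 peaks at these promoters were broad and of moderate rank. The median width in a library was 1354 bp in HSCs, 1688 in unstimulated and 1808 in LPS+IFN-γ BMDMs (median over libraries), against 904, 950 and 1073 bp over all genes with a peak. Promoters of the 40 genes with H3K4me3 alone in most pairs had 1460, 1861 and 1988 bp, and those of the 13 genes with both marks 1348, 1475 and 1467 bp. Their median percentiles went the other way, at 78.1, 71.9 and 72.6 for H3K4me3 alone and 89.5, 82.6 and 84.6 for both marks. Within 5 kb of the starts, H3K4me3 covered long stretches, for example at Foxp1 (4483 bp), Lhx2 (3882) and Foxc1 (3496) in HSCs, at Lhx2 (5968), Lhx1 (4083) and Six5 (4032) in unstimulated BMDMs and at Lhx2 (5259) and Foxp1 (4225) in LPS+IFN-γ BMDMs. These covered lengths lay between the percentiles 99.6 and 99.9 of all genes, and genes with more start sites have more sequence to cover.

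The promoters were also rich in CpG. Within 500 bp of the start site with the most CG, a window of 1001 bp on GRCm38, the 96 genes had a median of 75.0 CG, against 50.0 for all genes, and a gene with more starts has more windows to take it from. Among genes with neither mark in most pairs the medians were 61.5 and 16.0, and 70.0% of these developmental genes had 30 or more CG, against 28.7% of all genes with neither mark. Among genes with H3K4me3 alone they were close, at 76.5 and 80.0, and with both marks 104.0 and 79.0. The 8 genes that met neither mark in any list had a median of 20.0, against 10.0 for all such genes. Foxk2 had the most, 149, and Foxr2 the fewest, 8. Foxd4 had H3K4me3 in 18 lists with 29 CG, while Sox11, with 100 CG, had it in 6 and Sox3, with 96, in 5. All of the lists that met Sox11 and Sox3 were from HSCs.

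**Figure D5:**
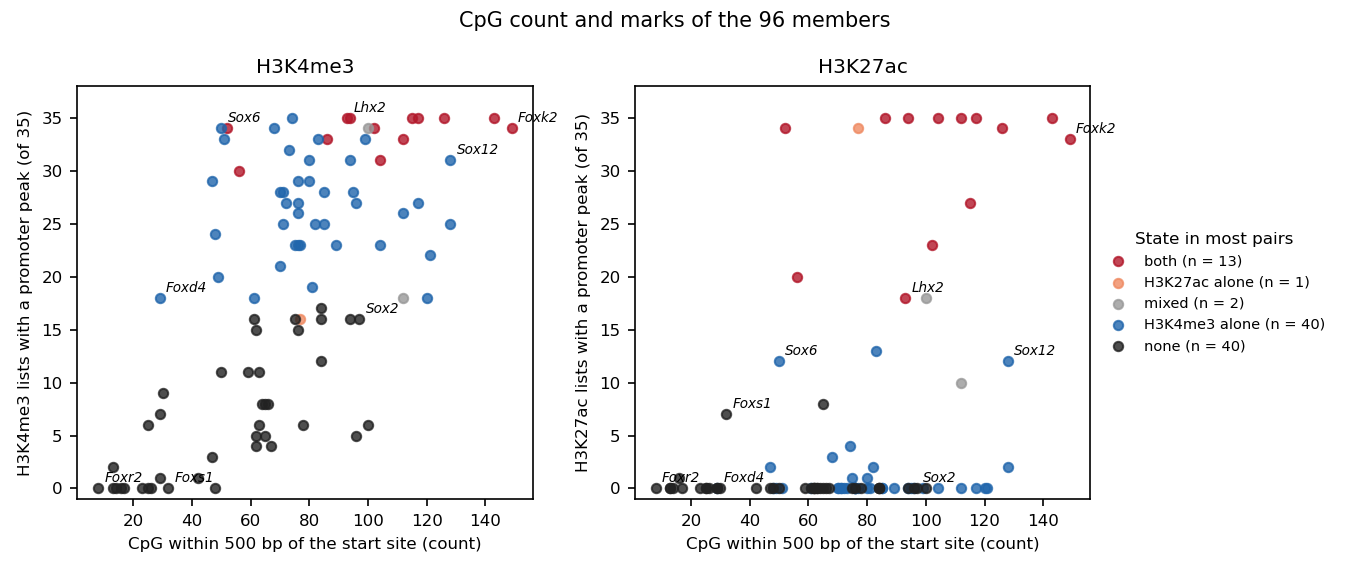
Number of CG dinucleotides within 500 bp of a start site (x axis) against the number of lists, out of 35, with a promoter peak among the 10000 strongest (y axis), in 1 panel per mark, for each of the 96 genes, coloured by state in most pairs. Genes with both marks lie at a median of 104.0 CG, those with H3K4me3 alone at 76.5 and those with neither at 61.5, with wide overlap.

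In the same windows, short words bound by blood transcription factors were counted on both strands. The RUNX words TGTGGT and TGCGGT (either of them) were found at 41.7% of the 96 genes and 56.3% of all genes, the ETS word GGAAGT at 38.5 and 50.0%, and the E-box CACCTG at 57.3 and 56.1%. A match of letters is not a binding site, and CpG-rich and CpG-poor windows differ in how often such words occur.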

How the data were processed

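Peak lists were the deposited files of the authors, 1 per library, called by MACS2 2.2.7.1 against the input of the same name after Trim Galore 0.3.3, Bowtie2 2.2.6 (GRCm38, mm10) and Picard, per the submitters' processing notes. Each deposited peak had a score (a rounded −log10 q, not used here), a fold enrichment (a ratio to the background) and −log10 p and q values, and no read counts, so the sequencing depth is unknown. The lowest −log10 q was 1.30104. Of 106 samples, the 36 inputs were not used. Peaks listed with several summits were merged to 1 interval, and the 10000 of highest −log10 p per list were read at promoters (1000 bp either side of any start site, 93513 sites of 21938 genes, GENCODE M21).

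Counts of libraries were compared by two-sided Fisher's exact tests over all genes, adjusted by Benjamini-Hochberg over genes whose total could reach 0.05, in 15 comparisons of a feature (3 features by 5 pairs of groups), and percentiles by limma 3.58.1 in R 4.3.3 (Python 3.11.15, scipy 1.17.1). The Fisher's exact test was also run on simulated data with 200 changed genes, in which libraries were drawn independently of each other. Such data lack the differences in list length seen here, so that run does not give the error rate in these lists. Replicates are the labels' numbered samples. Nothing used here ties them to separate mice, so p-values measure only the spread between these samples. The genes, the comparison lists and the alternatives were chosen with earlier results of these data known. Named genes were members called in a comparison, those with H3K27ac or H3K4me3 alone in most libraries, those known in blood or endothelium and their neighbours; Pax3, Pax7, Pax8, Sox10 and Tbx5 were added as examples after their values were seen. Sequences came from RefSeq promoters, where 66 of the 96 genes matched. Same-numbered libraries of compared groups were not paired, since in no comparison did every pair's deviations correlate above 0.1. Between LPS+IFN-γ and unstimulated BMDMs, however, 6 of 11 pairs for H3K4me3 and 7 of 11 for H3K27ac did. The median correlations there were 0.101 and 0.109, so a pairing in that comparison was not settled. Values of 1 of the 96 genes are not reported here, though the gene is in the counts and shares.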

Additional observations from a re-analysis of the deposited data

How the results depend on the processing

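The main limits are that calls rest on the 10000 strongest peaks of lists without read counts, and that groups of 5 or 6 libraries cannot give a Fisher p below 0.00216. The direction of 1 call turned: for H3K4me3 alone at Sox17, the share of HSC minus that of unstimulated BMDM pairs was 64.4 points, -25.0 with 20000 peaks and -2.27 as deposited. For members called between HSCs and unstimulated BMDMs (2 for H3K4me3, 5 for H3K27ac, 7 for H3K4me3 alone), the 20000 strongest peaks gave 0 for H3K4me3 and 3 for H3K4me3 alone. Lists as deposited gave 1 for H3K27ac, which was none of the 5, and 0 for H3K4me3 alone. Ranking by fold gave 0, 3 and 1 (for H3K4me3 alone none of the 7), and basic start sites 1 for H3K4me3. The replicate block, which the correlations between HSCs and unstimulated BMDMs do not support as a pairing, gave 0, 3 and 0 and changed no other count. limma on percentiles gave 27 for H3K4me3 and 30 for H3K27ac (16 and 24 without the 3 control libraries), and, for H3K27ac of LPS+IFN-γ against unstimulated BMDMs (0), 1 and, without the 3 control libraries, 5. The limma fits without these libraries or with a replicate block were chosen after seeing the data. Leaving out 1 library gave 0 to 3, 4 to 6 and 5 to 8. H3K4me3 fell to 0 without control HSC library 2 or 3 or diabetic HSC library 2 or 4, and to 1 without control HSC 5 or 6, diabetic HSC 1, control unstimulated 1 or 5, or diabetic unstimulated 1, 2 or 4. In all other comparisons every alternative run left 0 members called, among them limma with a replicate block for diabetic against control unstimulated BMDMs, where an exact McNemar test on 5 pairs cannot reach the threshold.

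Shares of members in HSCs, unstimulated and LPS+IFN-γ BMDMs moved with the number of peaks read. With 20000 peaks they were 81.2, 80.3 and 77.7% for H3K4me3, 28.9, 29.8 and 26.0% for H3K27ac and 53.9, 53.5 and 53.9% for H3K4me3 alone. As deposited they were 88.4, 94.8 and 94.5%, 65.9, 75.9 and 70.7%, and 27.2, 20.2 and 25.0%. Ranking by fold gave 62.0% for H3K4me3 in unstimulated BMDMs, 15.8% for H3K27ac in HSCs and 52.8 and 51.3% for H3K4me3 alone in unstimulated and LPS+IFN-γ BMDMs, and basic start sites 16.5% for H3K27ac in HSCs. Windows of 500 or 2000 bp, and leaving out the 3 or the 4 libraries, moved no share by more than 1 SD and no count by over 1.5 times. The cause of these shifts was not tested beyond the construction of each alternative.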
